A study of Homo sapiens with 6 samples.

Results

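Mitochondrial ribosomal proteins were taken as the genes whose symbol is MRPL or MRPS followed by a number and, for some, a letter from A to C. By this rule 78 of the 63241 genes in the table were members, 49 of them MRPL genes, named for the large subunit, and 29 MRPS genes, named for the small subunit. They were measured by RNA-seq in 6 libraries of HT−29, an established human colorectal adenocarcinoma cell line of wild type genotype. The control group was 3 libraries of cells given buffer, and the Amuc_0904 group was 3 libraries of cells given 0.5 μM recombinant Amuc_0904, an outer membrane protein of the gut bacterium *Akkermansia muciniphila*, both for 72 h. The comparison asks how the mRNA of each subunit differed after Amuc_0904. All cells came from 1 cell line, and whether the replicates were separate cultures is not stated in the sources used here, so a p value measures only the spread between these libraries.

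The mitochondrial ribosome, or mitoribosome, translates the few proteins encoded by the mitochondrial genome, all of them core subunits of the respiratory chain and the ATP synthase. Its rRNAs come from mitochondrial DNA, whereas its proteins are encoded in the nucleus, made in the cytosol and imported. Many of the proteins descend from those of the bacterial ribosome, and others were added in the mitochondrial lineage. Their symbols were given before structures were solved, and a few carry the name of the wrong subunit.

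Values were TPM, a gene's share of a library's transcripts after correction for its length, scaled to a fixed total, so levels can be compared between genes. No read counts were given, and the depth of a library and the counting error of a value are therefore unknown. The test was limma on log2(TPM + 1), run on the 14333 genes that reached 1 TPM in 3 or more libraries, with p values adjusted by the Benjamini-Hochberg method over all of them. A log2 fold change here is a difference on that scale, which slightly understates the change of low genes. All 78 members were tested, each on 1 row of the table. In bulk RNA, a change in the number of cells of 1 kind and a change in RNA per cell cannot be told apart.

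The epithelial markers checked were detected, with *EPCAM* between 546 and 621 TPM, although the intestinal factors *CDX1* and *CDX2* lay between 0.460 and 1.71 TPM. The summed level of the 9 epithelial markers ranged from 6358 to 6390 TPM over the controls and from 6328 to 7117 TPM over the Amuc_0904 libraries. The keratin *KRT8* was at 2682 to 2785 TPM in controls and at 2766, 3227 and 3291 TPM in Amuc_0904 replicates 1, 2 and 3, whereas the adhesion molecule *CDH1* was at 87.1 to 95.2 TPM and at 95.1, 72.3 and 75.6 TPM. *KRT18* lay above and *EPCAM* below all controls in replicates 2 and 3 as well. Of 5 leukocyte markers 4 were below 1 TPM in all libraries, and *CD14* lay between 1.89 and 4.76 TPM. The summed leukocyte markers were 4.89 to 5.21 TPM in control libraries and 2.12 to 3.51 TPM in Amuc_0904 libraries, and the summed stromal markers were 1.53 to 2.49 and 1.99 to 2.68 TPM. Their part in the results was not tested. Amuc_0904 replicate 1 stood apart from the other treated libraries, with a limma array weight of 0.224 against 1.26 to 1.49 for the others. Results that rest on it are given with and without it.

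Promoter sequences are shown for 4 members, chosen to set side by side genes with larger differences (*MRPS22*, *MRPL42*) and smaller ones (*MRPS18A*, *MRPL44*), with and without the letters of an ETS site. ETS factors include NRF-2, also called GABP, a known regulator of nuclear genes for mitochondrial proteins. Each line holds 100 bases upstream of the gene's first annotated exon there, 5′ to 3′ on the gene's strand, from RefSeq on GRCh38.p14. Capitals mark CCGGAAG, the ETS letters, and matches to the ZNF143 motif, on either strand. ZNF143 is a zinc finger factor that binds promoters, and its motif was added to the search after these sequences had been seen. The windows are chr3:139343856-139343955 (plus strand), chr6:43687792-43687891 (minus strand), chr12:93467388-93467487 (plus strand) and chr2:223957304-223957403 (plus strand).
MRPS22: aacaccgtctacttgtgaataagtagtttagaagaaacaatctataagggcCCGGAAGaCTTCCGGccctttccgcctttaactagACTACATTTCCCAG
MRPS18A: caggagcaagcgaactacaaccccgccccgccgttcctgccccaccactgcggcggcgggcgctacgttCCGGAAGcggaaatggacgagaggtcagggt
MRPL42: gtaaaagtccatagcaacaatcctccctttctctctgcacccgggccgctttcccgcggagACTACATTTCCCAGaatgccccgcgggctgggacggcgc
MRPL44: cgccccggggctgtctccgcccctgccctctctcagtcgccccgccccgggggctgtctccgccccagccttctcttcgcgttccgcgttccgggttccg
The *MRPS22* sequence holds the ETS letters on both strands, separated by a single base, and the ZNF143 motif at its 3′ end. *MRPS18A* holds the ETS letters and *MRPL42* the ZNF143 motif, and in *MRPL44* neither was found in this window.

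As a group, mitochondrial ribosomal protein mRNAs had higher means in the Amuc_0904 group, by a small amount in both subunits. The mean was higher for 77 of 78 members, 48 of 49 MRPL and 29 of 29 MRPS, under TPM as deposited and under median-of-ratios scaling, for 72 when TPM was rescaled without the mitochondrial genome's transcripts, and for 69 under quantile normalization. Leaving out 1 library at a time, the count ranged from 70 (without Amuc_0904 replicate 2) to 77 (without Amuc_0904 replicate 1). With all 6 libraries, 50.4% of all tested genes had a higher mean. The median log2 fold change was 0.14 over the members, a fold of 1.10, against 0.0015 over all tested genes. It was 0.15 for MRPL and 0.14 for MRPS genes. Single members ranged from −0.07 (*MRPL52*) to 0.33 (*MRPS6*), with an SD of 0.0873 between members, and 53 of the 78 lay above the 75th percentile of all tested genes.

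No single member passed the adjusted p in either direction in the comparison of all 6 libraries, where limma called 0.0698% of tested genes higher and 0.167% lower. The smallest adjusted p of a member was 0.146, that of *MRPS22*. At an unadjusted p under 0.05, 30 members were higher (17 MRPL and 13 MRPS) and 0 lower, while 9.95% of tested genes were higher and 5.87% lower. In 29 members (15 MRPL and 14 MRPS) every Amuc_0904 library lay above every control library, and in 0 members below, against 13.4% and 7.59% of tested genes. With 3 libraries in each group the smallest two-sided p of an exact permutation test is 0.1, and none is given for single members.

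**Figure D1:**
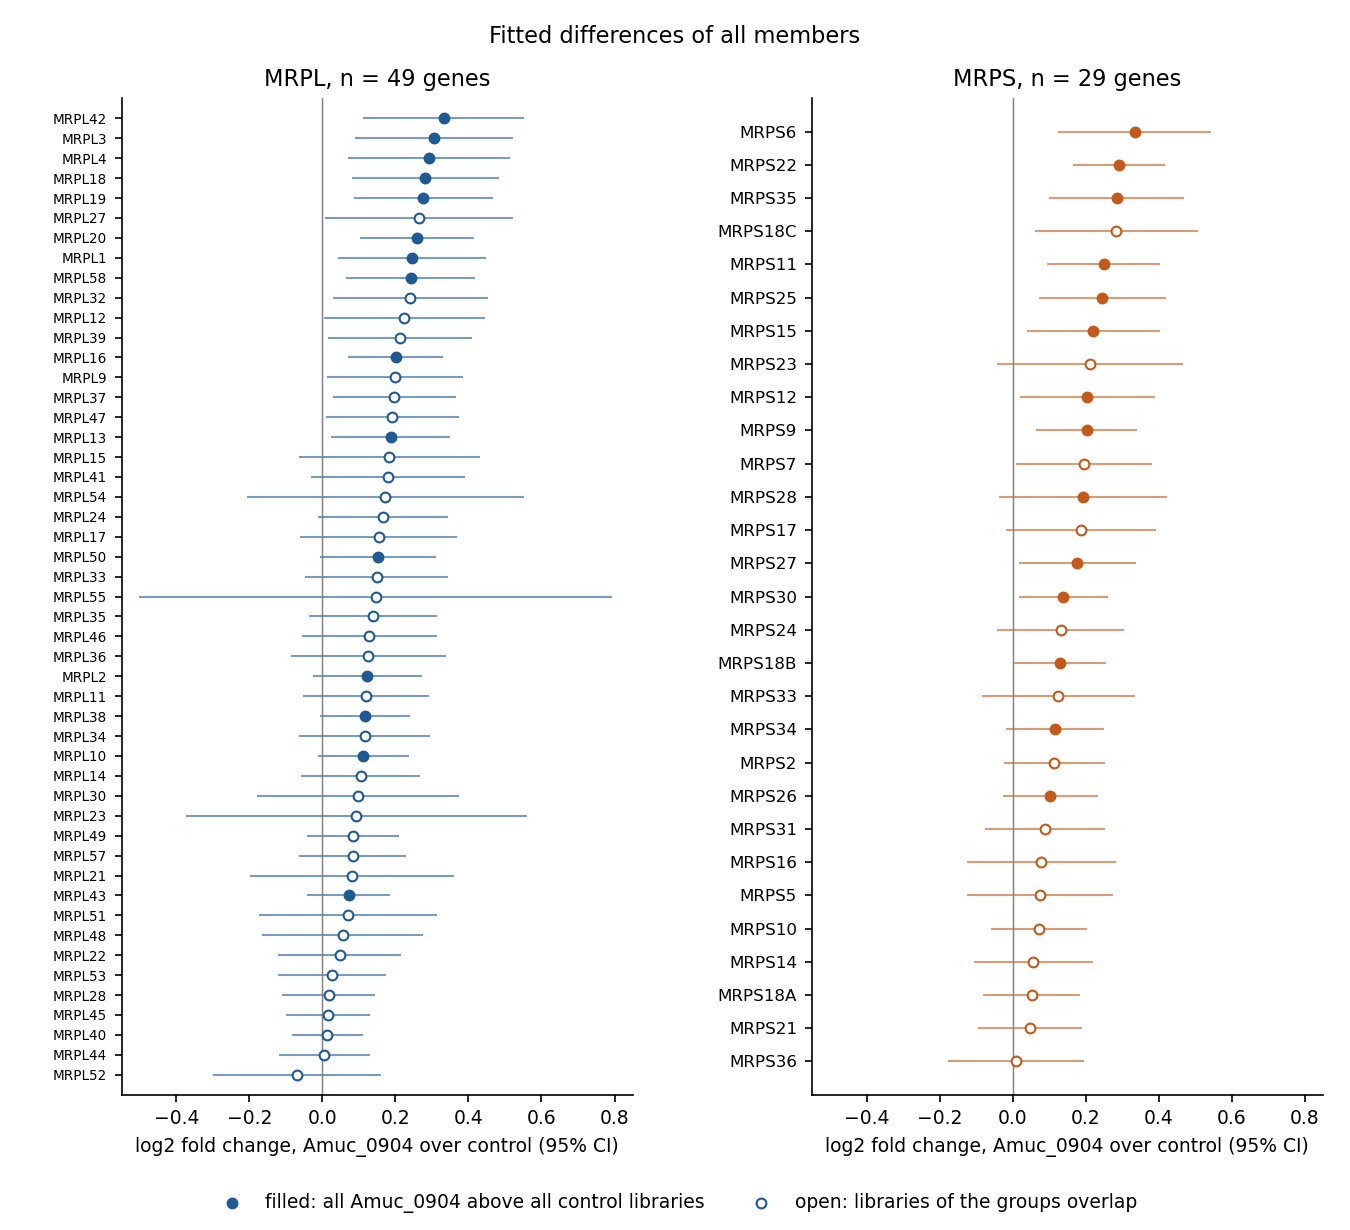
Log2 fold change (x axis, Amuc_0904 over control, limma, bars are 95% confidence intervals) of the 49 MRPL genes (left) and the 29 MRPS genes (right), in rank order. Filled points are the 15 MRPL and 14 MRPS genes whose libraries did not overlap between groups, and only *MRPL52* lies below 0.

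The libraries of the Amuc_0904 group did not contribute equally. Taking each member's mean over the controls as 0, the median member lay at 0.015, −0.028 and 0.024 on the log2 scale in control replicates 1, 2 and 3. It lay at 0.050 in Amuc_0904 replicate 1, and at 0.22 and 0.21 in replicates 2 and 3. The median over all tested genes was 0.055 in replicate 1 and −0.024 and −0.030 in replicates 2 and 3. In replicate 1 the members lay close to the median of all genes in that library, and in replicates 2 and 3 they lay above it.

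Counted member by member, replicate 1 lay above all controls for 34 members, within their range for 34 and below them for 10. Over all tested genes it lay above the controls for 42.1%. Replicates 2 and 3 both lay above all controls for 62 members, 38 of 49 MRPL and 24 of 29 MRPS, against 22.8% of all tested genes. Replicate 1 was the lowest treated library for 63 members, and the share of all tested genes for which it was lowest was not computed.

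**Figure D2:**
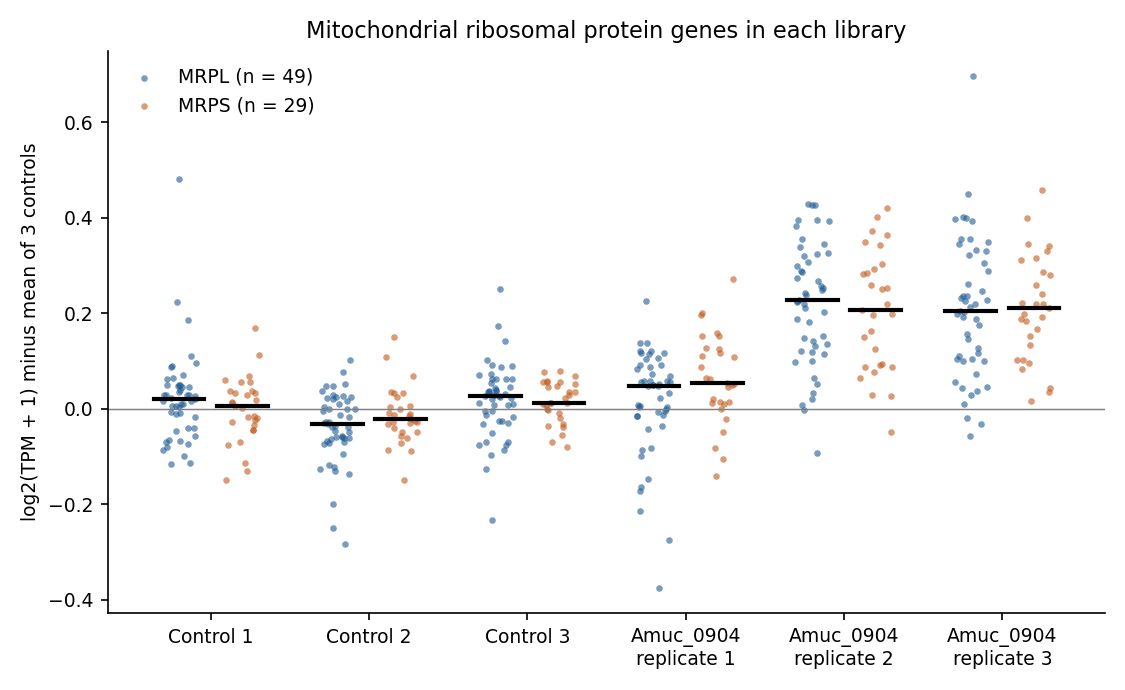
Level of each member in each library (y axis, log2(TPM + 1) minus the mean of the 3 controls), with blue points for the 49 MRPL and orange points for the 29 MRPS genes and black bars for medians. The medians of both subunits lie near 0 in the controls, at 0.047 and 0.053 in Amuc_0904 replicate 1, and between 0.21 and 0.23 in replicates 2 and 3.

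Without Amuc_0904 replicate 1, 36 members passed the adjusted p as higher, 21 MRPL and 15 MRPS, and 0 as lower, where 9.51% of tested genes passed as higher and 9.24% as lower. Their log2 fold changes lay between 0.17 and 0.44 and their adjusted p values, from limma, between 0.00185 and 0.0430. The median over the members was then 0.23, alike in MRPL and MRPS genes, beside −0.028 over all tested genes. The other 42 members were not called. With all 6 libraries weighted by limma's array weights 34 members passed, all of them among the 36. Over the 14333 tested genes 1315 passed as higher and 1056 as lower in that fit. It gave Amuc_0904 replicate 1 a weight of 0.224, so it nearly leaves out the same library and is not a separate check. Leaving out any other single library gave 0 calls among members. Replicate 1 was singled out by its values in these same data. Adjusted p values without it, here and below, may therefore be too small and are descriptive only.

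**Figure D3:**
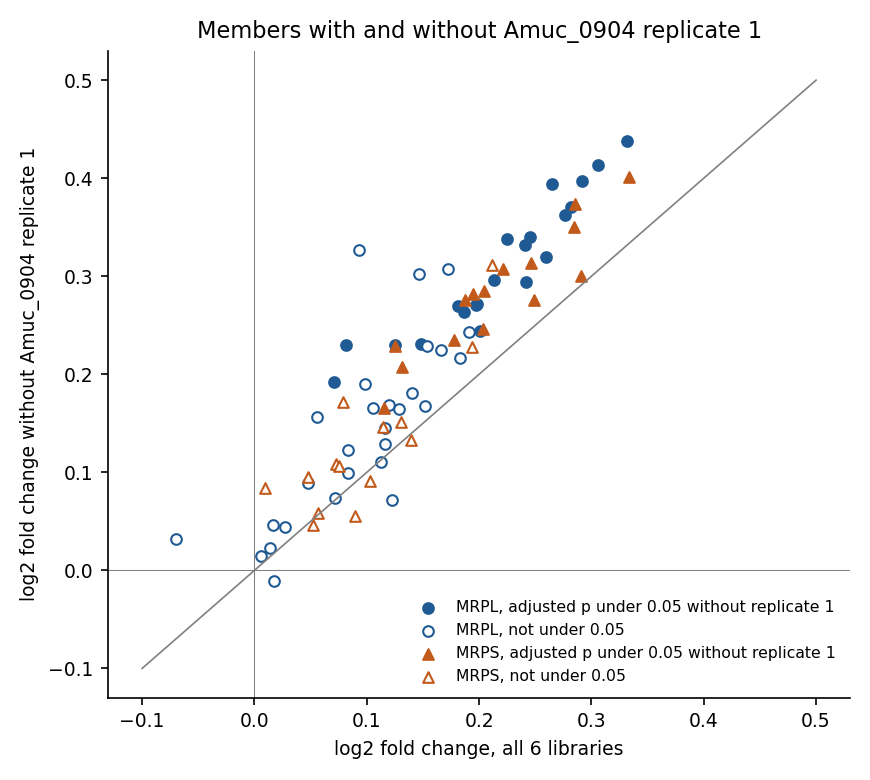
Log2 fold change of each member with all 6 libraries (x axis) and without Amuc_0904 replicate 1 (y axis), with circles for MRPL and triangles for MRPS genes. Filled symbols are the 36 members past the adjusted p without that library, and most points lie above the line of equality.

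Summed over the subunit, MRPL mRNA was 4130, 3974 and 4156 TPM in the controls. It was 4117, 4801 and 4749 TPM in Amuc_0904 replicates 1, 2 and 3. The MRPS sum was 1752, 1726 and 1765 TPM in the controls and 1818, 2043 and 2049 TPM in the treated libraries. In both sums replicates 2 and 3 lay above all controls, and replicate 1 lay within the controls' range for MRPL and just above it for MRPS. All members together held 0.570% to 0.592% of TPM in control cells and 0.594%, 0.684% and 0.680% in Amuc_0904 replicates 1, 2 and 3. Transcripts of the mitochondrial genome, which share the same total, held 12.8% to 13.5% in controls and 13.0%, 10.6% and 11.1% in the treated libraries. With those transcripts left out of the total, the median log2 fold change was 0.12 for MRPL and 0.11 for MRPS genes, and −0.02 over all tested genes.

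The balance of the subunits differed little between groups. The ratio of MRPL to MRPS mRNA was 2.34 ± 0.0310 (SD, n = 3) in control cells and 2.31 ± 0.0431 (n = 3) in Amuc_0904 cells, and the single libraries ranged from 2.26 in Amuc_0904 replicate 1 to 2.36 in control replicate 1. The difference of the groups was smaller than the spread in either. The MRPL median of the log2 fold change exceeded the MRPS median by 0.00703, and it lay 0.042 below when genes were placed by structure, with *MRPS30* and *MRPS18A* counted in the large subunit and *MRPS36* left out. By structure the medians were 0.14 for 51 large subunit and 0.18 for 26 small subunit genes, and without Amuc_0904 replicate 1 they were 0.23 and 0.23. Leaving out 1 library at a time moved the difference by name between −0.034 (without control replicate 2) and 0.0041 (without control replicate 1), so its sign depended on the libraries.

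In the small subunit, *MRPS22* had the smallest p of the members. Its protein, mS22, is an addition of the mitochondrial lineage, and recessive variants of the gene are a known cause of mitochondrial disease. *MRPS22* was at 54.8, 50.5 and 52.5 TPM in the controls and at 63.6, 63.1 and 66.9 TPM in Amuc_0904 replicates 1, 2 and 3. All treated libraries, replicate 1 included, lay above all controls, and the log2 fold change was 0.29 (standard error 0.05, adjusted p = 0.146 by limma). Without replicate 1 it was 0.30 (adjusted p = 0.0124).

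*MRPS6*, the homologue of bacterial S6, had the highest log2 fold change of all members. It was at 49.9, 58.2 and 58.7 TPM in the controls and at 63.9, 70.7 and 76.6 TPM in the treated libraries. The groups did not overlap (log2 fold change 0.33, standard error 0.09, adjusted p = 0.232 by limma). *MRPS35*, an mRNA for the mitochondria-specific protein mS35, was at 136, 132 and 135 TPM in the controls and at 144, 171 and 177 TPM after Amuc_0904, with a log2 fold change of 0.29. Its groups did not overlap either, and it had the smallest adjusted p of all members without replicate 1, 0.00185.

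*MRPS11*, the homologue of bacterial S11, was at 53.5, 49.98 and 49.6 TPM in the controls and at 58.6, 65.9 and 58.3 TPM in the treated libraries, with no overlap and a log2 fold change of 0.25. *MRPS25*, for the mitochondria-specific mS25, was the lowest MRPS gene by level, at 22.1, 23.3 and 22.7 TPM in the controls and at 24.6, 27.8 and 29.1 TPM after Amuc_0904. Its libraries did not overlap between groups either. Both passed the adjusted p without replicate 1, at 0.0344 and 0.0110.

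Bacterial S18 has 3 human mitochondrial homologues, and structures have placed each at a different site. *MRPS18C* encodes the protein in the S18 position, *MRPS18B* another small subunit protein now called mS40, and *MRPS18A* the large subunit protein mL66. *MRPS18C* was at 72.3, 57.8 and 63.4 TPM in the controls and at 71.5, 83.4 and 81.0 TPM in the treated libraries. Only replicates 2 and 3 lay above the controls (log2 fold change 0.28, adjusted p = 0.258 by limma). *MRPS18B* was at 67.5, 68.1 and 70.3 TPM in the controls and at 73.0, 73.2 and 79.5 TPM after Amuc_0904, with no overlap and a log2 fold change of 0.13. *MRPS18A* was at 57.4, 52.7 and 58.3 TPM and at 58.7, 59.2 and 56.7 TPM, overlapping, with a log2 fold change of 0.05 (95% confidence interval −0.08 to 0.18). Exons of *MRPS18C* overlap *ABRAXAS1* on the opposite strand over 40.2% of their length in GENCODE 29, and it is not stated whether the counting used strand. *ABRAXAS1* averaged 7.19 TPM, and its part in the result was not tested. The intervals of the 3 paralogs overlapped, and no test of their differences was made.

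*MRPS30* is the other MRPS gene whose protein, mL65, sits in the large subunit. It was at 45.8, 46.9 and 49.2 TPM in the controls and at 52.7, 53.1 and 50.8 TPM after Amuc_0904. The groups did not overlap, and their log2 fold change was 0.14 (adjusted p = 0.280 by limma). *MRPS36* encodes no ribosomal protein in current structures and is known as KGD4, an adaptor of the 2-oxoglutarate dehydrogenase complex. At 35.9, 38.5 and 39.0 TPM in the controls and 34.2, 41.3 and 39.0 TPM in the treated libraries, it had the lowest log2 fold change of the MRPS genes, 0.01 (95% confidence interval −0.18 to 0.20).

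The other low MRPS genes encode homologues of bacterial proteins. *MRPS21* was at 92.4, 88.2 and 95.7 TPM in the controls and at 89.0, 97.9 and 98.9 TPM after Amuc_0904. *MRPS14*, near the lowest MRPS genes by level, was at 26.9, 25.9 and 27.2 TPM and at 27.7, 25.7 and 30.1 TPM. *MRPS10* was at 48.6, 49.3 and 49.6 TPM and at 49.1, 51.4 and 54.8 TPM. The groups overlapped in all 3, with log2 fold changes of 0.05, 0.06 and 0.07.

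By level the MRPS genes were led by *MRPS35*, *MRPS34* and *MRPS33*, the last 2 also for mitochondria-specific proteins. *MRPS34* was at 133, 132 and 134 TPM in the controls and at 134, 153 and 146 TPM after Amuc_0904. It did not overlap between groups, by a narrow margin in replicate 1, and its log2 fold change was 0.12. *MRPS33* was at 117, 110 and 114 TPM and at 107, 132 and 134 TPM, with replicate 1 below all controls. *MRPS17*, the homologue of bacterial S17, was among the lowest by level, at 23.9, 25.4 and 26.5 TPM and at 25.4, 31.1 and 30.4 TPM.

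In bacteria S12 lies at the decoding centre and S7 in the head of the small subunit. Their homologues are *MRPS12* and *MRPS7*, which were named after their values had been seen. Their log2 fold changes were 0.20 and 0.19, and both passed without replicate 1 (adjusted p = 0.0131 and 0.0060 by limma).

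In the large subunit, *MRPL42*, *MRPL3* and *MRPL4* had the highest log2 fold changes. *MRPL42* encodes a mitochondria-specific protein. It was at 102, 97.3 and 92.7 TPM in the controls and at 106, 131 and 133 TPM in the treated libraries, with a log2 fold change of 0.33 (standard error 0.09, adjusted p = 0.238 by limma). *MRPL3*, the homologue of bacterial L3, was at 158, 149 and 159 TPM in the controls and at 165, 209 and 205 TPM after Amuc_0904, with a log2 fold change of 0.31 (standard error 0.09, adjusted p = 0.243). *MRPL4*, whose bacterial relative lines the exit tunnel for the nascent chain, was at 26.3, 27.9 and 28.1 TPM and at 29.1, 36.4 and 36.4 TPM, with a log2 fold change of 0.29. In all 3 the groups did not overlap, replicate 1 lay just above the controls, and replicates 2 and 3 lay well above. Without replicate 1 all 3 passed the adjusted p, at 0.00315, 0.00211 and 0.00485.

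The same order of libraries held for the next pair. *MRPL18*, whose bacterial relative binds 5S rRNA, was at 50.4, 55.4 and 54.9 TPM in the controls and at 57.6, 67.9 and 71.0 TPM in the treated libraries, with a log2 fold change of 0.28. *MRPL19*, for a homologue of bacterial L19, was at 39.2, 40.9 and 40.9 TPM and at 43.4, 53.2 and 50.9 TPM, also with 0.28. Neither overlapped between groups.

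*MRPL52* was the only member whose mean was lower after Amuc_0904, with TPM as deposited and all 6 libraries. It encodes a mitochondria-specific protein and was at 38.9, 37.3 and 36.8 TPM in the controls and at 31.0, 41.0 and 36.2 TPM after Amuc_0904. Only replicate 1 lay far below the controls, and the log2 fold change of −0.07 (95% confidence interval −0.30 to 0.16) became 0.03 without it. *MRPL44*, for a mitochondria-specific protein with an RNase III-like fold, was at 50.6, 47.8 and 52.5 TPM and at 49.8, 51.0 and 50.6 TPM, with a log2 fold change of 0.01 (95% confidence interval −0.12 to 0.13). Every treated library lay within the range of the controls.

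*MRPL40*, also mitochondria-specific, was at 127, 128 and 129 TPM in the controls and at 128, 129 and 131 TPM in the treated libraries. *MRPL45*, whose protein lies at the tunnel exit and contacts the inner membrane, was at 142, 147 and 148 TPM and at 141, 152 and 149 TPM. *MRPL28*, for a homologue of bacterial L28, was at 83.3, 87.5 and 91.1 TPM and at 91.8, 87.1 and 86.1 TPM. The log2 fold change of each was between 0.01 and 0.02. The 95% confidence intervals reached from −0.08 to 0.11 for *MRPL40*, from −0.10 to 0.13 for *MRPL45* and from −0.11 to 0.14 for *MRPL28*.

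**Figure D4:**
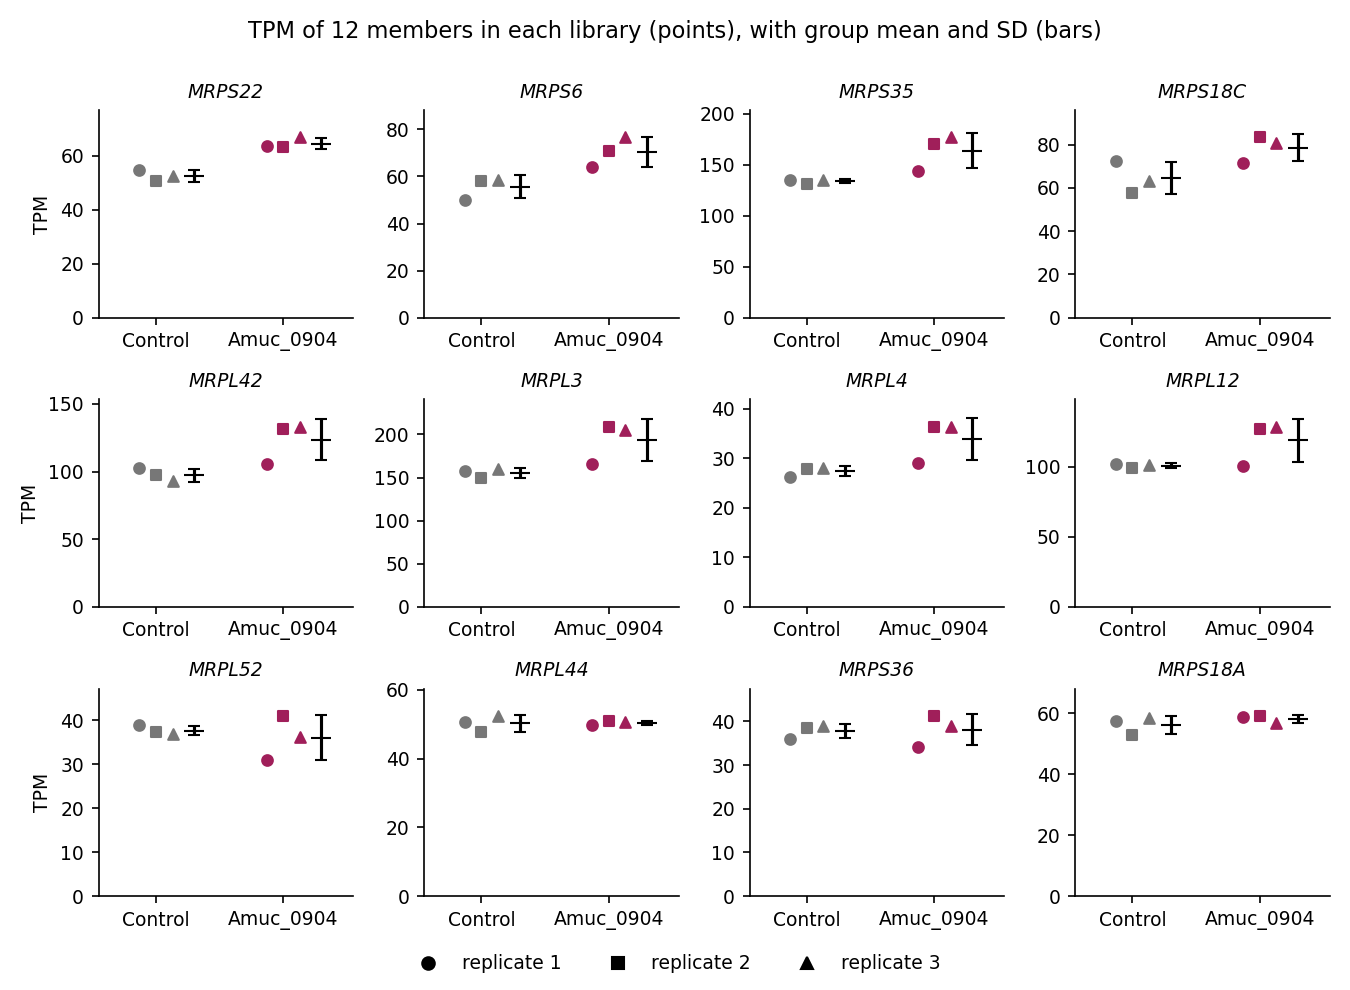
TPM (y axis, from 0) of 12 members in each library, with circles, squares and triangles for replicates 1, 2 and 3 and bars for the group mean and SD (n = 3). In *MRPS22* all treated libraries lie together above the controls, in *MRPL42*, *MRPL3*, *MRPL4* and *MRPL12* replicate 1 lies near them, and in *MRPL44* and *MRPS18A* the groups overlap.

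Proteins of the stalk, which recruits translation factors, are encoded by *MRPL10*, *MRPL11* and *MRPL12*. *MRPL12*, the multicopy stalk protein that is also known to bind the mitochondrial RNA polymerase, was at 102, 98.8 and 101 TPM in the controls and at 101, 127 and 129 TPM after Amuc_0904. Replicate 1 lay within the control range and the other treated libraries above it (log2 fold change 0.22, standard error 0.09, adjusted p = 0.310 by limma, and 0.00233 without replicate 1). *MRPL10* and *MRPL11*, named after their values had been seen, had log2 fold changes of 0.11 and 0.12 and were not called with or without replicate 1.

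Proteins that ring the exit of the tunnel in bacterial ribosomes have homologues in *MRPL17*, *MRPL22*, *MRPL23*, *MRPL24*, *MRPL32* and *MRPL47*. All but *MRPL23* were named after their values had been seen. Their log2 fold changes were 0.15, 0.05, 0.09, 0.17, 0.24 and 0.19, and none was called with all 6 libraries. Without replicate 1 only *MRPL32* was called (adjusted p = 0.0149 by limma), beside 9.51% of all tested genes called higher. *MRPL23* was among the lowest MRPL genes by level and the most scattered of the ring, at 31.4, 24.4 and 24.97 TPM in the controls and at 20.4, 33.2 and 34.5 TPM after Amuc_0904. Its groups overlapped, with replicate 1 below all controls and the other treated libraries above. *MRPL58*, a peptidyl-tRNA hydrolase built into the large subunit and also named after its value was seen, had a log2 fold change of 0.24 without overlap between groups.

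By level the MRPL genes were led by *MRPL33*, *MRPL13* and *MRPL51*. *MRPL33*, for a homologue of bacterial L33, was at 307, 287 and 326 TPM in the controls and at 303, 362 and 357 TPM after Amuc_0904. *MRPL13*, for a homologue of bacterial L13, was at 291, 289 and 288 TPM and at 296, 348 and 347 TPM. The controls of *MRPL13* were closely spaced, and all treated libraries lay above them, with a log2 fold change of 0.19. *MRPL51*, for a mitochondria-specific protein, was at 235, 223 and 239 TPM and at 206, 275 and 257 TPM, with replicate 1 below all controls.

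The lowest MRPL genes by level were *MRPL57*, *MRPL50* and *MRPL23*. *MRPL57* was at 18.2, 17.8 and 16.6 TPM in the controls and at 18.2, 18.8 and 18.8 TPM in the treated libraries. *MRPL50* was at 16.3, 17.9 and 18.5 TPM and at 19.2, 19.5 and 20.2 TPM, without overlap between groups. Both encode mitochondria-specific proteins, and their log2 fold changes were 0.08 and 0.15. *MRPL55*, named after its values had been seen, was scattered in both groups, at 53.0, 31.6 and 32.0 TPM in the controls and at 33.5, 35.3 and 61.7 TPM after Amuc_0904.

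Member levels spanned 17.9-fold, from a mean of 18.1 TPM to 323 TPM over all libraries. With members split by mean TPM into 3 groups of 26, the median log2 fold change was 0.12 in the lowest, 0.15 in the middle and 0.18 in the highest group. Without replicate 1 these medians were 0.17, 0.23 and 0.24, and 8, 10 and 18 members passed the adjusted p as higher. Over all tested genes of any level 9.51% did, and the share at matched level was not computed. The difference between the 3 groups was not tested. Across the 78 members, which share libraries and are not independent, the Spearman correlation of log2 fold change with mean TPM was 0.115. The median coefficient of variation was 4.30% in the controls and 8.64% in the Amuc_0904 group, whose replicate 1 stood apart.

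By origin, the 46 members classed as having a bacterial homologue had a median log2 fold change of 0.17, and 20 of them were higher at an unadjusted p under 0.05. The 31 members classed as mitochondria-specific had a median of 0.13, and 10 were higher at that p, where 9.95% of all tested genes were. *MRPS18A* and *MRPS18B*, at 0.05 and 0.13, were counted here as mitochondria-specific, although they are homologues of bacterial S18. Without replicate 1 the medians were 0.24 and 0.16, and 24 and 12 members passed the adjusted p as higher, beside 9.51% of all tested genes. The classes overlapped widely, with *MRPL42*, *MRPS35* and *MRPS22* among the mitochondria-specific genes, and the difference was not tested.

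Promoters were searched in a window from 250 bases before to 50 after each RefSeq start, on both strands, for the 69 of 78 members with an entry. Shares for comparison are over the 10237 tested genes and the 27305 genes of any level that have a window there. The ETS letters CCGGAAG were present in 30 of 69 members (43.5%), in 23.02% of those tested genes and in 12.2% of all genes with a window. They were in 18 of 42 MRPL and 12 of 27 MRPS genes. Members with these letters had a median log2 fold change of 0.12 and those without 0.17. The NRF1 letters GCATGCGC were in 6 members (8.70%), 6.53% of tested and 3.68% of all genes with a window. A match is a description of the sequence only.

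The YY1 letters ATGGCGGC were in 19 of 69 members (27.5%), 7.56% of tested and 3.67% of all genes with a window. In 17 members they lay on the gene's strand after the start, and in 16 the ATG in them was an annotated start codon in GENCODE 29. Such an arrangement close to the start of transcription is known from a translation initiation element of short leaders called TISU. Members with and without the letters had median log2 fold changes of 0.14 and 0.15. The ZNF143 motif was in 5 members (7.25%), *MRPL19*, *MRPL24*, *MRPL42*, *MRPL50* and *MRPS22*, against 2.56% of tested and 1.25% of all genes with a window. Their log2 fold changes were 0.28, 0.17, 0.33, 0.15 and 0.29, with a median of 0.28, and the 64 members without the motif had a median of 0.14. The motif was added after the sequences of *MRPS22* and *MRPL42* had been seen, and these 2 were chosen for larger differences. Its share and these values therefore depend on that choice and cannot show a link of motif and difference.

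All 78 members had an entry in GENCODE 29 on GRCh38, on 21 chromosomes. *MRPS22* lies on chromosome 3 from 139005806 to 139357223, *MRPS6* on chromosome 21 from 34073224 to 34143034, *MRPL42* on chromosome 12 from 93467488 to 93516213 and *MRPL3* on chromosome 3 from 131462212 to 131502983. The human build behind the TPM is not known, since the labels name a mouse build beside human Ensembl identifiers. Exons of 28 members overlap those of another gene with a mean of at least 1 TPM, and the other 50 had a median log2 fold change of 0.14. Pseudogenes carrying a member's name were listed for 36 members, and only those of *MRPS31* held over 5% of the summed TPM, 13.3%. *MRPS31* itself had a log2 fold change of 0.09 and was not called with or without replicate 1.

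The ribosome has further proteins with other names, and 5 of them were listed. None was called, 4 had a higher mean (3 under quantile normalization and 3 without the mitochondrial genome's transcripts), and the median log2 fold change was 0.12. *DAP3*, the GTP-binding protein mS29, was at 98.2, 108 and 108 TPM in the controls and at 107, 120 and 116 TPM after Amuc_0904. *PTCD3*, the pentatricopeptide protein mS39 at the mRNA entry, was the scattered one, at 76.3, 113 and 70.7 TPM and at 77.7, 71.1 and 102 TPM. *AURKAIP1* and *GADD45GIP1* had log2 fold changes of 0.16 and 0.12, and *CHCHD1* 0.0043. Without replicate 1, 1 of the 5, *AURKAIP1*, passed as higher (adjusted p = 0.0234 by limma), beside 9.51% of all tested genes.

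Of 16 mitochondrial translation factors, all had a higher mean in the Amuc_0904 group under each scaling tried, and 0 passed the adjusted p. At an unadjusted p under 0.05, 5 were higher and 0 lower, beside 9.95% and 5.87% of all tested genes. The median log2 fold change was 0.14. The smallest adjusted p, 0.109, was that of *MRRF*, the ribosome recycling factor. *MRRF* was at 45.9, 49.1 and 49.3 TPM in the controls and at 58.9, 67.0 and 67.1 TPM after Amuc_0904, without overlap and with a log2 fold change of 0.41. The initiation factor *MTIF2*, the elongation factor *GFM1* and *TSFM*, the exchange factor of elongation factor Tu, followed with 0.26, 0.30 and 0.26. In all 4, replicate 1 lay above all controls. Without replicate 1, 5 of the 16 factors passed the adjusted p as higher, beside 9.51% of all tested genes, *MRRF* and *MTIF2* among them.

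Of 30 genes for mitoribosome assembly and rRNA modification, 23 had a higher mean and 7 a lower one (21 and 9 without the mitochondrial genome's transcripts), 0 passed the adjusted p, and the median log2 fold change was 0.06. At an unadjusted p under 0.05, 9 were higher and 0 lower, beside 9.95% and 5.87% of all tested genes. *C1QBP*, a matrix protein linked to mitoribosome assembly, was at 222, 219 and 226 TPM in the controls and at 242, 322 and 321 TPM after Amuc_0904 (log2 fold change 0.39, adjusted p = 0.238 by limma, and 3.95e-04 without replicate 1). *MPV17L2* had the highest difference of the list, 0.45, at 7.06, 7.18 and 6.82 TPM and at 7.63, 11.6 and 11.1 TPM. *FASTKD2*, which binds the large rRNA, and *RBFA*, a maturation factor of the small subunit, had log2 fold changes of 0.22 each. Without replicate 1, 4 of the 30 genes passed as higher, beside 9.51% of all tested genes.

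Of 20 genes for mitochondrial transcription, RNA processing and the nuclear factors that regulate these genes, 19 were tested and *PPARGC1A* was below the filter. Of these 16 had a higher mean, 0 passed the adjusted p, and the median was 0.11. At an unadjusted p under 0.05, 4 were higher and 0 lower, beside 9.95% and 5.87% of all tested genes. *MYC*, a transcription factor that promotes ribosome and mitochondrial biogenesis, was at 75.7, 81.4 and 76.3 TPM in the controls and at 91.5, 107 and 107 TPM after Amuc_0904. Its libraries did not overlap between groups (log2 fold change 0.38, adjusted p = 0.157 by limma). *TFAM*, the packaging and transcription factor of mitochondrial DNA, was at 44.7, 46.5 and 45.1 TPM and at 49.2, 55.0 and 53.6 TPM, with 0.21. *REXO2* and *SUPV3L1*, which degrade RNA in mitochondria, had 0.25 and 0.20. The other nuclear factors tested, named after their values had been seen, differed less and were not called with or without replicate 1. *NRF1* and *ESRRA* had log2 fold changes of −0.07 each, *GABPA* 0.04, *GABPB1* and *PPRC1* 0.08 each and *YY1* 0.09. Without replicate 1, 5 of the 19 genes passed the adjusted p as higher, beside the same 9.51%, among them *MYC*, *TFAM* and *REXO2*.

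The rRNAs of the mitoribosome are encoded by mitochondrial DNA, and their TPM did not follow that of its protein genes. *MT-RNR1*, the small subunit rRNA, was at 1118, 1229 and 1102 TPM in the controls and at 1416, 1078 and 1062 TPM in Amuc_0904 replicates 1, 2 and 3. *MT-RNR2*, the large subunit rRNA, was at 3188, 3452 and 3173 TPM and at 3458, 2811 and 2925 TPM. In both, replicates 2 and 3, the libraries with the higher member levels, lay below all controls, and replicate 1 lay above them. How rRNA is captured depends on the library method, and its part was not tested.

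Proteins of the cytosolic ribosome served for comparison. Of 77 genes, 27 had a higher and 50 a lower mean (16 and 61 without the mitochondrial genome's transcripts), 0 passed the adjusted p, 1 was higher and 8 were lower at an unadjusted p under 0.05, and the median log2 fold change was −0.02. Over all tested genes 9.95% were higher and 5.87% lower at that p. In 3 cytosolic genes every Amuc_0904 library lay above the controls and in 20 below, against 13.4% and 7.59% of tested genes. The median gene lay at −0.077 in replicate 1 and at 0.016 and −0.0096 in replicates 2 and 3. Without replicate 1 the balance of means turned, with 42 of 77 higher and a median of 0.0069. In that comparison 11 passed as higher and 13 as lower, where 36 and 0 mitochondrial ribosomal protein genes did, and 9.51% and 9.24% of all tested genes. The difference between the sets was described and not tested.

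**Figure D5:**
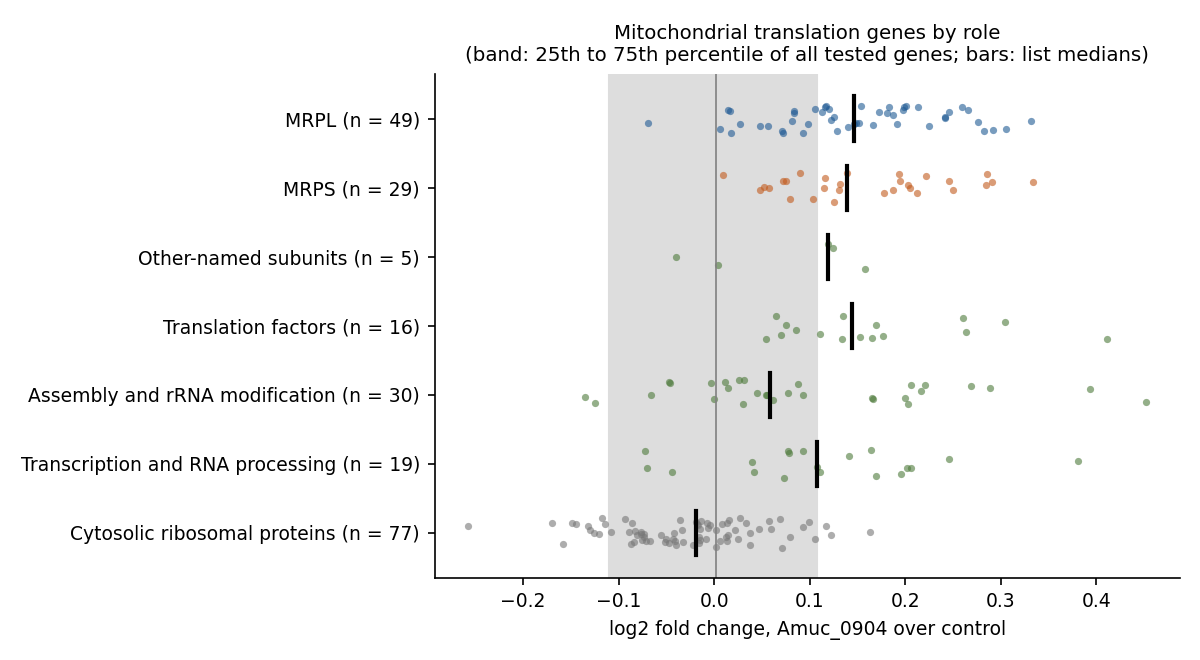
Log2 fold change (x axis, Amuc_0904 over control, all 6 libraries) of the tested genes of each list (rows), with black bars for list medians and a grey band from the 25th to the 75th percentile of all tested genes, −0.11 to 0.11. The medians of MRPL, MRPS, other-named subunits and translation factors lie right of the band, and that of cytosolic ribosomal proteins, −0.02, within it.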

How the data were processed

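RNA-seq of 6 HT−29 libraries, 3 Control and 3 Amuc_0904, was used as TPM per gene. The authors trimmed reads with SeqPrep and Sickle and aligned and assembled them with HISAT2 and StringTie, and the labels also name RSEM and edgeR, all without versions, and a mouse genome build. The deposited TPM summed to 1000000 in each library within rounding, and 25 lines of spilled annotation text were left out. No counts were given, so edgeR, which needs them, was not used here, and depth is unknown. Dose and time are those the study states.

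Genes that reached 1 TPM in 3 or more libraries were tested as log2(TPM + 1) in limma 3.58.1 (R 4.3.3) with a mean-variance trend, robust empirical Bayes and condition as the only term, and called at a Benjamini-Hochberg adjusted p under 0.05. The pipeline was tested on simulated data with the spread of the controls in all libraries. The planted differences were larger than that of any member, and no simulated library stood apart, so the test does not cover that case. Replicate numbers are not stated to pair the samples, and deviations of same-numbered libraries correlated at 0.046, −0.039 and −0.0047.

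Members and gene lists were chosen with earlier results of these data known. Named members are the 5 highest and 5 lowest log2 fold changes and the 3 highest and 3 lowest mean TPM in MRPL and in MRPS, the S18 paralogs, *MRPS30*, *MRPS36* and *MRPL12*. Named genes of other lists are the subunits with another name and up to 4 per list with the smallest p. Others are marked in the text as chosen after their values were seen. Structural places and gene roles are background from general knowledge. Promoter windows are from RefSeq (GRCh38.p14) and positions from GENCODE 29. Alternatives changed the pseudocount, filter, weights, scaling, replicate block, subunit membership and libraries left out. The rescaling without mitochondrial-genome transcripts was chosen after the data were seen.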

Additional observations from a re-analysis of the deposited data

How the results depend on the processing

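With all 6 libraries at equal weight, 0 members passed the adjusted p in limma under each pseudocount, filter, scaling and empirical Bayes setting tried, with 15 to 30 higher at an unadjusted p under 0.05, and the medians of both subunits stayed above 0. With array weights 19 MRPL and 15 MRPS genes were called higher. Leaving out 1 library at a time gave 0 to 21 MRPL and 0 to 15 MRPS calls, all of them without Amuc_0904 replicate 1, and 0 lower. The MRPL minus MRPS median ranged from −0.034 to 0.0041 over these and was −0.042 by structural place. The cause of these moves was not tested.

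Some single log2 fold changes changed sign, up to that of *MRPL55*, 0.15 with all libraries as deposited. Under quantile normalization *CHCHD1* was at −0.028, *MRPL28* at −0.014, *MRPL40* at −0.035, *MRPL44* at −0.031, *MRPL45* at −0.049, *MRPL51* at −0.0077, *MRPS21* at −0.0042 and *MRPS36* at −0.0032. Without mitochondrial-genome transcripts, an alternative chosen after seeing the data, *CHCHD1* was at −0.021, *MRPL28* at −0.0077, *MRPL40* at −0.011, *MRPL44* at −0.019, *MRPL45* at −0.0084 and *MRPS36* at −0.016. With array weights *MRPL28* was at −0.0039 and *MRPL52* at 0.014. With 1 library left out, the range was −0.029 to 0.051 for *CHCHD1*, −0.013 to 0.093 for *MRPL22*, −0.038 to 0.33 for *MRPL23*, −0.016 to 0.048 for *MRPL28*, −0.030 to 0.037 for *MRPL44*, −0.0076 to 0.046 for *MRPL45*, −0.013 to 0.19 for *MRPL51*, −0.17 to 0.032 for *MRPL52*, −0.13 to 0.39 for *MRPL55*, −0.049 to 0.084 for *MRPS36* and −0.19 to 0.17 for *PTCD3*.

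The replicate block gave 0 calls among members, 28 higher at an unadjusted p under 0.05 and a smallest adjusted p of 0.226, and 5 higher and 16 lower calls among all tested genes, where the fit without the block gave 10 and 24. All tested genes gave 3 and 15 calls without a filter, 5 and 20 without trend and robust, 6 and 27 under median-of-ratios scaling and 1315 and 1056 with array weights. The replicate numbers are not stated to pair the samples. The depth behind each value is unknown, which limits what can be said of small differences in low genes.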
